A study of Mus musculus with 8 samples.

Results

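The 10 genes described here encode the MHC class I molecule and the machinery that supplies it with peptide: B2m, H2-K1, H2-D1, H2-T23, Tap1, Tap2, Tapbp, Psmb8, Psmb9 and Nlrc5. They were taken by symbol from the count tables of 8 libraries of ribosome-associated RNA from mouse lung, and all 10 had a row among 23238 gene symbols. MHC class I is found on most nucleated cells and shows peptides from the cell's own proteins to CD8 T cells. Each molecule pairs a heavy chain with β2-microglobulin. Proteasomes cut the peptides, the TAP transporter carries them into the endoplasmic reticulum, and tapasin helps to load them. Interferon-γ induces most of these genes, and NLRC5 is the transactivator that acts on their promoters. Lung endothelium lies against circulating lymphocytes and carries class I constitutively.

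Sox17-deleted hypoxic mice (Cdh5-CreERT2;Sox17fl/fl;RPL22tm1.1Psam, 4 libraries) spent 3 weeks in hypoxia, and control mice (Cdh5-CreERT2; RPL22tm1.1Psam, 4 libraries) spent 3 weeks in room air. Both groups were C57BL/6J, were given 5 daily injections of 2 mg tamoxifen from 8 weeks of age, and entered room air or hypoxia at 10 weeks. Cdh5-CreERT2 is a tamoxifen-dependent recombinase driven by the VE-cadherin promoter, and the Rpl22 allele (RiboTag) then puts a haemagglutinin tag on ribosomes of the recombined cells, so both groups carry the recombinase, the tag and the drug. Genotype and oxygen changed together, so their effects cannot be told apart.

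Library totals ran from 7000313 to 12913304 counts in Sox17-deleted hypoxic libraries and from 10567561 to 11884614 in control libraries. Sox17 had 473, 31, 6 and 41 counts in Sox17-deleted hypoxic libraries 1 to 4 and at least 2442 in each control library, and whether the sequenced 3′ end lies in the deleted part is not given in the labels. Pan-endothelial markers (17 genes) summed to between 10890 and 19049 counts-per-million (CPM) of the library total in Sox17-deleted hypoxic libraries and between 18693 and 20389 CPM in control libraries. Between 8019 and 8708 symbols had a count in Sox17-deleted hypoxic libraries, against 9821 to 10429 in control libraries. Nothing in the labels says that libraries came from separate animals, and the p-values below thus reflect library-to-library spread only, part of which may be technical. The names of the deposited tables give Sox17-deleted hypoxic libraries 2, 3 and 4 a shared number, which may mean a shared source. In that case fewer than 4 independent samples stand behind every SD, interval and p-value of that group.

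The promoters of B2m, H2-K1 and H2-D1 are shown because these 3 genes supply most of the counts described here and because the heavy chain pair shares much of its promoter. The Tap1 window is shown because it also covers the start of Psmb9 on the other strand. Each window holds 250 bases before and 50 after a RefSeq gene start (GRCm38.p6), is written 5′ to 3′ on the gene's own strand, and lies at chr2:122147437-122147736 (plus) for B2m, chr17:34000298-34000597 (minus) for H2-K1, chr17:35262844-35263143 (plus) for H2-D1 and chr17:34187306-34187605 (plus) for Tap1. Capitals mark, on either strand, the interferon-stimulated response element (ISRE, a pair of GAAA words separated by any 2 bases), GGGATTCCC (a κB site), TGACG (the core of a cyclic AMP response element) and CCAAT. H2-K1 has a further window that starts 14 bases away and is not shown.
B2m: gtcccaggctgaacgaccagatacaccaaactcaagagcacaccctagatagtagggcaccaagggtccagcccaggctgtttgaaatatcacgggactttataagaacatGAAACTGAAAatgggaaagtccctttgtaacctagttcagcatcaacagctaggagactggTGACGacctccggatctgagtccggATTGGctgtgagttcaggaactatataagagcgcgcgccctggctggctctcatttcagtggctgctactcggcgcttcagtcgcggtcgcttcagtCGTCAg
H2-K1: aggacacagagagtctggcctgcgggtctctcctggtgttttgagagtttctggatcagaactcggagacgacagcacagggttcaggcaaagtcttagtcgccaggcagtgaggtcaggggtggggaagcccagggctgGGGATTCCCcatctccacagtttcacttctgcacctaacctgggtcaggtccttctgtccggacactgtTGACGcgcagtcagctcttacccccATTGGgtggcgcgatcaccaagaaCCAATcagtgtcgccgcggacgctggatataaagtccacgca
H2-D1: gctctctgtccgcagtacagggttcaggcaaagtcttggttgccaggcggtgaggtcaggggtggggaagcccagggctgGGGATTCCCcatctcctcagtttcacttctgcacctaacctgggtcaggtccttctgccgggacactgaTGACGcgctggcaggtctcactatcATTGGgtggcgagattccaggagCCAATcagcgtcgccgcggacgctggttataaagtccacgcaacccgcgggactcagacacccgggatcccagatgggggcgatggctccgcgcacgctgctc
Tap1: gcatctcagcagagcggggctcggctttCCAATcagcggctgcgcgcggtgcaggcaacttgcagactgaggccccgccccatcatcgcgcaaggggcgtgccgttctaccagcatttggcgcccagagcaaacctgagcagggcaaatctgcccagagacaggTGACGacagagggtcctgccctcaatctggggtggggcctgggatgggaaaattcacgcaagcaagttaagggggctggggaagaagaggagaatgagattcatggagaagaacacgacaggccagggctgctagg

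RefSeq windows matched 8 of the 10 genes. Over 239 aligned bases the H2-K1 and H2-D1 windows were identical at 88.3%, and at each gene the κB site, the TGACG word, a reversed CCAAT box and a forward CCAAT box follow in the same order. In B2m, H2-K1 and H2-D1, exactly 20 bases separate TGACG from the reversed CCAAT box, the arrangement of the X2 and Y boxes known from MHC promoters. This spacing was looked up after the windows were seen. It occurs in 31 of 32851 RefSeq windows (0.0944%) of 27 genes, among which H2-M3 is another class I gene. The single motifs are commoner: GGGATTCCC is in 0.353% of all windows, the ISRE in 3.44%, TGACG in 20.8% and CCAAT in 37.4%. Of the 8 matched genes, 2 held the ISRE word (B2m and H2-T23), 2 held GGGATTCCC, 5 held TGACG and 7 held CCAAT. The Tap1 and Psmb9 windows overlap, and their TGACG and CCAAT words are the same sites on opposite strands, counted for each gene. Only exact words were sought, so a differently spelled interferon response element, for instance in H2-K1 or H2-D1, would not be marked. No motif overlaps another in the 4 windows shown.

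B2m, H2-K1 and H2-D1 were among the most abundant transcripts of both groups, and none of the 9 genes tested passed the test for a difference between Sox17-deleted hypoxic and control libraries. Together the 10 genes had 22828, 17587, 9015 and 12627 CPM in Sox17-deleted hypoxic libraries 1 to 4, against 19199, 19877, 18239 and 15177 CPM in control libraries 1 to 4. The groups overlapped, and the Sox17-deleted hypoxic libraries held both the highest and the lowest sum. Of the 9 genes with enough counts to test, edgeR called 0 at an adjusted p under 0.05, as it called 0 of all 8282 genes tested (0%). None of the 9 had an unadjusted p under 0.05, where 5.12% of all genes did. DESeq2 called 0 of the 9 and 4.75% of all genes it adjusted, and 1 of the 9, Tap1, had an unadjusted p under 0.05. Limma-voom called 0 of the 9 and 0.531% of all genes, and 1 of the 9, H2-D1, had an unadjusted p under 0.05. The groups overlapped for all 9, where 6.59% of all tested genes did not overlap (1.63% higher and 4.96% lower in the Sox17-deleted hypoxic group). A log2 fold change above 0, meaning a higher estimate in the Sox17-deleted hypoxic group, was found for 6 of the 9 and for 49.6% of all genes, with medians of 0.20 and −0.01.

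B2m, which encodes the light chain of every class I molecule (chromosome 2, 122147686 to 122153083, plus strand, GRCm38), was the most abundant of the 10. It had 9306, 6451, 4679 and 4406 CPM in Sox17-deleted hypoxic libraries 1 to 4, against 9146, 9234, 7223 and 6230 CPM in control libraries 1 to 4. Sox17-deleted hypoxic library 1 lay above all controls and libraries 3 and 4 lay below all controls, so the groups overlapped. The means were 6210 ± 2254 and 7959 ± 1479 CPM in Sox17-deleted hypoxic and control libraries (SD, n = 4 each). By mean CPM it ranked 3 among all symbols in the Sox17-deleted hypoxic group and 2 in the control group, where only the ribosomal RNA precursor Rn45s was higher. Ranks compare 3′ tag counts, of which a transcript gives about the same number whatever its length. The log2 fold change was −0.35 (95% interval −1.04 to 0.35), with an adjusted p of 1.00 by edgeR's quasi-likelihood test. Summed pan-endothelial markers were lower in Sox17-deleted hypoxic libraries 2 to 4 than in any control. Of these 17 markers, all tested, 6 had a log2 fold change above 0 and 11 below, and none passed the test. Set against their summed counts in place of the TMM-scaled library total, the log2 fold change of B2m was −0.064, while the median over all genes moved by 0.36. In bulk samples, fewer cells of a type and less RNA per cell cannot be told apart.

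H2-K1 and H2-D1 encode the classical heavy chains H-2K and H-2D, which hold the peptide (chromosome 17, 33996017 to 34000347, minus strand, and 35262730 to 35267499, plus strand). H2-K1 had 5684, 5978, 2309 and 3940 CPM in Sox17-deleted hypoxic libraries, against 4186, 4601, 4638 and 3832 CPM in control libraries. H2-D1 had 5382, 3283, 656 and 2345 CPM in Sox17-deleted hypoxic libraries, against 4258, 4508, 4533 and 3700 CPM in control libraries. For H2-D1, libraries 2, 3 and 4 of the Sox17-deleted hypoxic group were below every control and library 1 was above every control. For H2-K1, libraries 1 and 2 were above every control and library 3 was below.

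The spread of both genes was wider in the Sox17-deleted hypoxic group. Its highest library had 2.59 times the CPM of its lowest for H2-K1 and 8.20 times for H2-D1, against 1.21 and 1.23 times in the controls. The log2 fold change was 0.05 for H2-K1 (95% interval −0.62 to 0.72) and −0.55 for H2-D1 (95% interval −1.52 to 0.42), and each had an edgeR adjusted p of 1.00. For H2-D1 the log2 fold change was −0.23 when Sox17-deleted hypoxic library 3 was left out and −1.06 when library 1 was. The direction of H2-K1 turned with upper-quartile scaling (−0.022) and when Sox17-deleted hypoxic library 1 (−0.091), Sox17-deleted hypoxic library 2 (−0.069) or control library 4 (−0.0031) was left out.

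**Figure D1:**
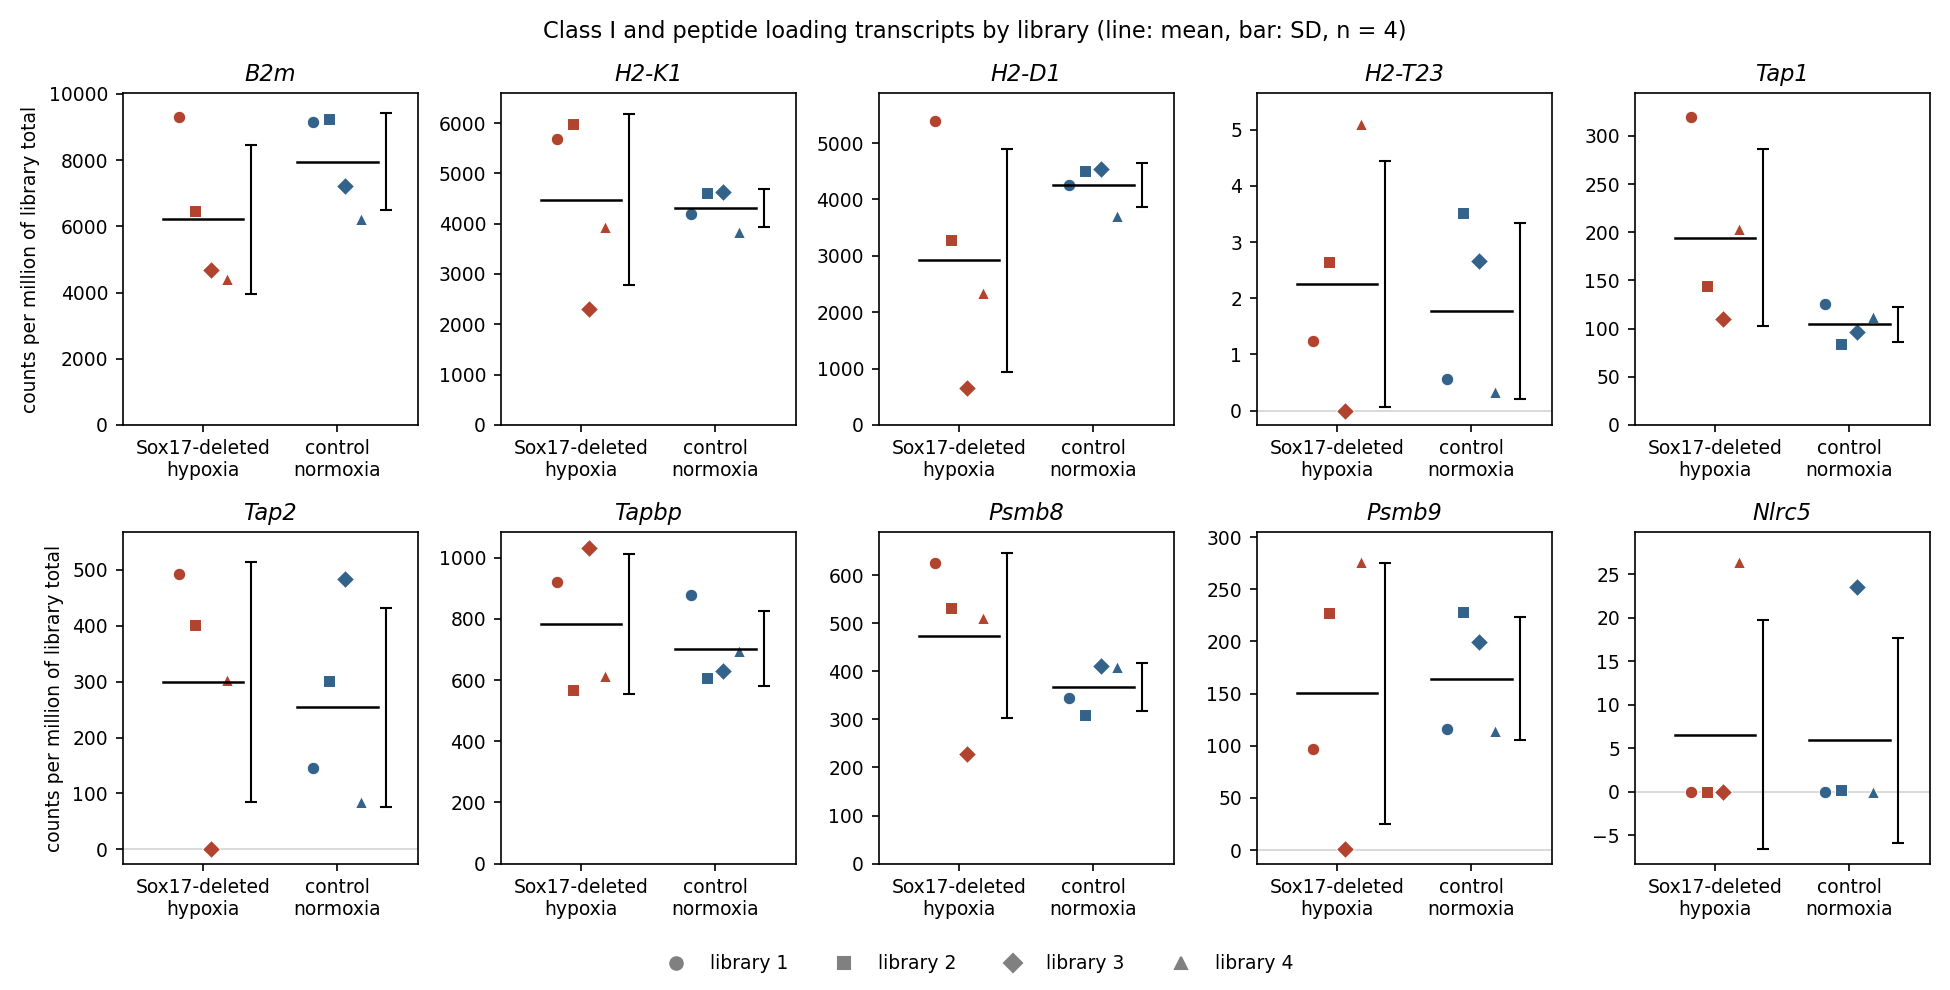
Level of each of the 10 genes in CPM (y axis, linear, a scale per gene) in 4 Sox17-deleted hypoxic libraries and 4 control libraries. Symbols give the library number, lines the mean and bars the SD; for H2-D1 the Sox17-deleted hypoxic libraries run from 656 to 5382 CPM, while controls lie between 3700 and 4533 CPM.

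The groups did not overlap in the ratio of the heavy chains. For each H2-D1 count there were 1.06, 1.82, 3.52 and 1.68 H2-K1 counts in Sox17-deleted hypoxic libraries 1 to 4, against 0.983, 1.02, 1.02 and 1.04 in control libraries. All Sox17-deleted hypoxic libraries lay above all controls, library 1 by little. The difference in the mean log2 ratio was 0.85, with an exact two-sided permutation p of 0.0286, the smallest that 4 against 4 libraries allow, and a Benjamini-Hochberg adjusted p of 0.200 over the 7 ratios computed. It did not pass that adjustment, and the ratio was singled out after its values were seen. Without Sox17-deleted hypoxic library 3 the difference was 0.54. The ratio of H2-K1 to B2m was 0.611, 0.927, 0.493 and 0.894 in Sox17-deleted hypoxic libraries and 0.458, 0.498, 0.642 and 0.615 in control libraries (exact permutation p = 0.257, adjusted p = 0.600), and that of H2-D1 to B2m was 0.578, 0.509, 0.140 and 0.532 against 0.465, 0.488, 0.628 and 0.594 (exact permutation p = 0.543, adjusted p = 0.760).

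**Figure D2:**
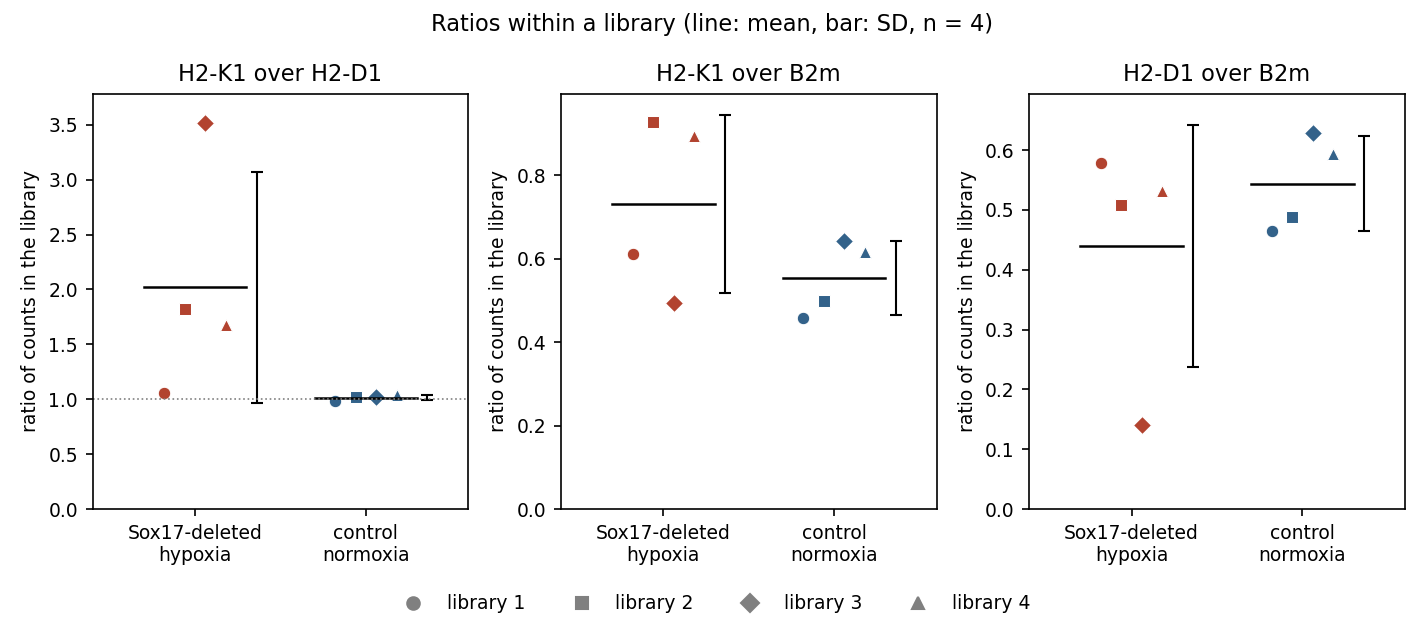
Ratios of counts within a library (y axis, linear from 0) for H2-K1 over H2-D1, H2-K1 over B2m and H2-D1 over B2m, with symbols for the library number, lines for the mean and bars for the SD over 4 libraries. The 4 control libraries sit between 0.983 and 1.04 for H2-K1 over H2-D1, and the Sox17-deleted hypoxic libraries between 1.06 and 3.52.

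Class I heavy chains are near copies of each other, so a read can match several rows. Of all 50-base words in the last 400 bases of annotated H2-K1 transcripts (GENCODE M21), 10.2% also occur in transcripts of another gene, 8.74% in H2-D1. For H2-D1, 3.99% of these words occur in H2-K1. The heavy chain genes H2-Q8, H2-Q9, H2-T9 and H2-L have count rows but no entry in that annotation. Words shared with them could not be seen, so these shares may be too low. The sources used here do not say how reads with several matches were counted. H2-T22 and H2-T9, non-classical heavy chain genes, had equal counts in 5 of 8 libraries and differed by at most 113 counts elsewhere, so they are uncertain as separate genes. Adding the 30 rows of H2-K, H2-D, H2-Q, H2-T and H2-M genes gave 8168 ± 3981 CPM in Sox17-deleted hypoxic libraries and 9379 ± 879 CPM in control libraries (SD, n = 4 each), of which H2-K1 and H2-D1 made up 90.9%. The summed row had a log2 fold change of −0.21 (SE 0.37, edgeR adjusted p = 1.00).

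H2-T23, which encodes the heavy chain of Qa-1, a non-classical molecule that presents signal peptides of other class I chains to NK cell receptors, was barely counted (chromosome 17, 36029773 to 36032855, minus strand). Its counts were 16, 25, 0 and 57 in Sox17-deleted hypoxic libraries and 6, 39, 31 and 4 in control libraries, and the 0 allows up to 0.429 CPM, the level of 3 counts in that library. All 8 libraries were at or under 5.11 CPM. At this depth the log2 fold change of 0.30 has a 95% interval of −3.12 to 3.73. Of the 50-base words in its last 400 bases, 36.2% occur in other genes.

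Among other class I heavy chain genes, 7 of 19 listed passed the expression filter, 5 with a log2 fold change above 0 and 2 below, and none passed the test. H2-T22 averaged 117 ± 86.3 CPM in Sox17-deleted hypoxic libraries and 104 ± 20.4 CPM in control libraries, and H2-M3, which presents formylated peptides, 47.5 ± 45.9 and 18.8 ± 14.7 CPM (SD, n = 4 each). H2-Q9, a Qa-2 gene outside the list and named after its values were seen, followed H2-K1 and H2-D1 in level among the heavy chain rows, at 330, 733, 36.9 and 381 CPM in Sox17-deleted hypoxic libraries, against 524, 447, 546 and 474 CPM in control libraries (log2 fold change −0.46, SE 0.57). Sox17-deleted hypoxic library 3 was the lowest of the 8 for H2-Q9, H2-T22, H2-T9 and H2-M3, as it was for H2-K1 and H2-D1.

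Tap1 and Tap2 encode the paired chains of the peptide transporter (chromosome 17, 34187553 to 34197225 and 34203527 to 34216321, both plus strand). Tap1 had 319, 144, 110 and 203 CPM in Sox17-deleted hypoxic libraries, against 126, 83.7, 96.7 and 112 CPM in control libraries. Libraries 1, 2 and 4 of the Sox17-deleted hypoxic group were above every control, and library 3 lay within the control range. With means of 194 ± 91.9 and 104 ± 18.2 CPM (SD, n = 4 each), its log2 fold change of 0.90 (95% interval −0.15 to 1.96, SE 0.49) was the highest of the 9 genes tested, with an edgeR adjusted p of 1.00. Over 20 alternatives it stayed between 0.56 and 1.24, and the adjusted p ran from 0.214 (DESeq2) to 1.00. Exons of Tap1 and Psmb9 overlap in the annotation on opposite strands, and the sources used here do not say whether counting used strand.

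Tap2 had 493, 402, 0.143 and 302 CPM in Sox17-deleted hypoxic libraries, against 146, 301, 483 and 85.4 CPM in control libraries. The groups overlapped over nearly their whole range, and the log2 fold change was 0.23 (SE 1.06, edgeR adjusted p = 1.00). Sox17-deleted hypoxic library 3 held 1 Tap2 count, although the other 7 libraries averaged 316 CPM. Among 713 genes averaging between 200 and 500 CPM elsewhere, 6 (0.842%) had at most 5 counts in that library. The share was 0.141% in each of the other Sox17-deleted hypoxic libraries and 0% in every control library. Among genes averaging between 100 and 200 CPM elsewhere, the share was 1.70% to 4.34% in Sox17-deleted hypoxic libraries and at most 0.289% in control libraries. When library 3 was left out, Tap2 had a log2 fold change of 0.64, and when library 1 was, −0.18.

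Tapbp encodes tapasin, which bridges class I to the transporter (chromosome 17, 33915899 to 33929292, plus strand). It had 922, 569, 1033 and 612 CPM in Sox17-deleted hypoxic libraries, against 877, 607, 629 and 695 CPM in control libraries. Unlike the heavy chains and Tap2, it was highest in Sox17-deleted hypoxic library 3. Its log2 fold change was 0.20 (95% interval −0.51 to 0.91, edgeR adjusted p = 1.00), and it was −0.028 when library 3 was left out. Its exons overlap those of Zbtb22 in the annotation.

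Psmb8 and Psmb9 encode LMP7 and LMP2, catalytic subunits that replace their constitutive counterparts in the immunoproteasome and favour peptides that fit class I (chromosome 17, 34197721 to 34201454, plus strand, and 34181987 to 34187764, minus strand). Psmb8 had 625, 531, 227 and 510 CPM in Sox17-deleted hypoxic libraries, against 344, 309, 410 and 408 CPM in control libraries. Libraries 1, 2 and 4 were above every control and library 3 was below every control (log2 fold change 0.37, 95% interval −0.38 to 1.11, edgeR adjusted p = 1.00). Psmb9 had 96.6, 227, 0.714 and 276 CPM in Sox17-deleted hypoxic libraries, against 116, 229, 200 and 114 CPM in control libraries. Library 3 held 5 Psmb9 counts where the other 7 libraries averaged 180 CPM, and the log2 fold change was −0.17 with library 3 and 0.24 without it (edgeR adjusted p = 1.00 in each fit).

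Nlrc5, the class I transactivator (chromosome 8, 94434356 to 94527272, plus strand), was not tested because it did not pass the expression filter. It had 294 counts (26.3 CPM) in Sox17-deleted hypoxic library 4 and 274 counts (23.5 CPM) in control library 3. The other libraries held 0 counts in the Sox17-deleted hypoxic group, and 0, 2 and 0 counts in the control group. A single library in each group thus carried nearly all of its counts, and its level could not be compared.

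**Figure D3:**
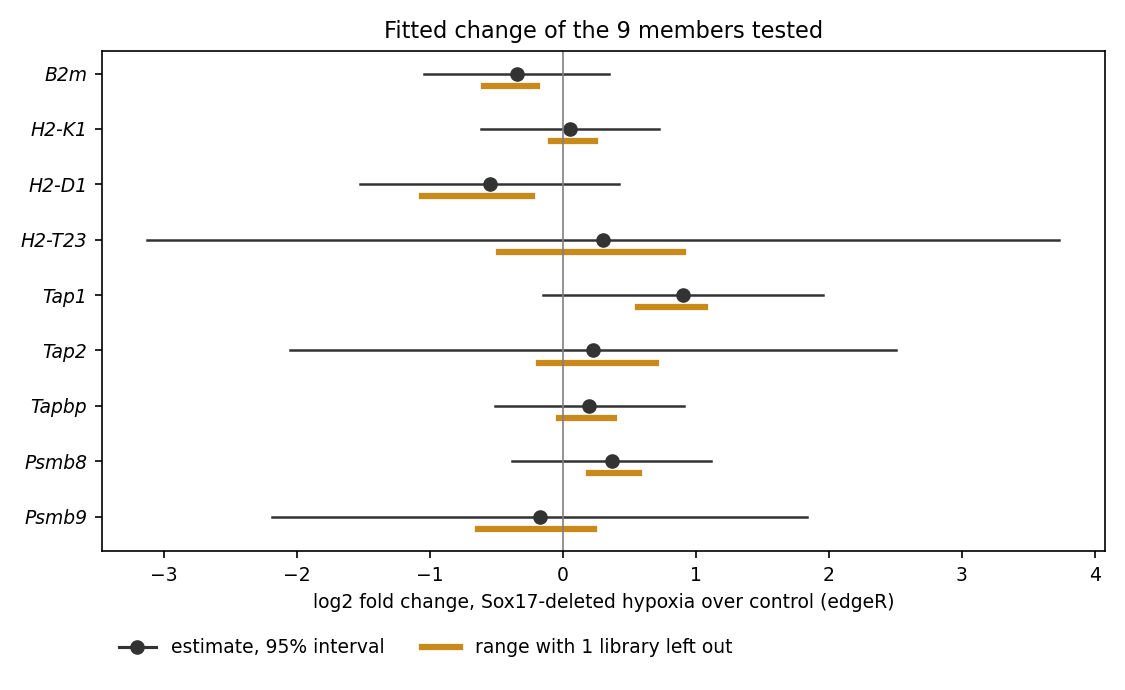
Log2 fold change of the 9 genes tested, Sox17-deleted hypoxia over control (x axis), from edgeR. Points and black lines give the estimate and its 95% interval, and the amber line the range when 1 of the 8 libraries is left out; every interval includes 0, and the amber line lies on a single side of 0 for B2m, H2-D1, Tap1 and Psmb8.

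By a likeness measured as the root mean square difference of centred log2(CPM + 1) over the 8 libraries, the nearest of 3620 genes to B2m were Wac (0.18), Gabarap (0.20) and Grina (0.22), beside a median of 0.98. Nearest to H2-K1 were AW112010 (0.19), Podxl (0.19) and Mgp (0.20), and to H2-D1 Myl12a (0.16), Fermt2 (0.24) and Thbd (0.27). H2-K1 and H2-D1 differed by 0.61 from each other, B2m and H2-K1 by 0.36 and B2m and H2-D1 by 0.66.

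Of 13 other genes listed with peptide loading and trimming, all tested, 9 had a log2 fold change above 0 and 4 below. Their median was 0.53, and none passed the test. The list includes the proteasome genes Psmb10, Pomp, Psme1, Psme2 and Psme3, so its sum is not one of loading and trimming genes alone. The part of these proteasome genes in the sum was not tested. All 13 genes summed to 3784, 3479, 4734 and 3580 CPM in Sox17-deleted hypoxic libraries. In control libraries they summed to 3280, 3295, 3399 and 2877 CPM, with no overlap. The closest values were 3479 and 3399 CPM, on library totals without TMM factors. Taken singly, the groups overlapped for all 13 genes, where 6.59% of all tested genes did not overlap. The chaperone gene Hspa5 averaged 944 ± 263 CPM in Sox17-deleted hypoxic libraries and 980 ± 121 CPM in control libraries, and Pdia3, the oxidoreductase of the loading complex, 537 ± 205 and 563 ± 33.7 CPM. Pomp, the proteasome maturation protein gene, averaged 593 ± 235 and 420 ± 67.1 CPM (SD, n = 4 each). Psmb10, the remaining immunoproteasome subunit gene and named after its values were seen, had 303, 508, 818 and 507 CPM in Sox17-deleted hypoxic libraries, against 399, 308, 214 and 191 CPM in control libraries (log2 fold change 0.97, SE 0.41, edgeR adjusted p = 0.829). It was highest in library 3, where Psmb8 and Psmb9 were lowest.

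Of 14 core proteasome subunit genes (Psma1 to Psma7 and Psmb1 to Psmb7), 12 were above 0 and 2 below. Their median was 0.32, and none passed the test. Only Psmb5, Psmb6 and Psmb7 among them are replaced in immunoproteasomes, and the others are common to both kinds of proteasome. All 14 genes summed to 3216, 3759, 3180 and 2656 CPM in Sox17-deleted hypoxic libraries. In control libraries they summed to 2418, 2373, 2368 and 2440 CPM, with no overlap. Taken singly, the groups overlapped for all 14 genes, where 6.59% of all tested genes did not overlap. Psma7 averaged 555 ± 156 and 319 ± 59.7 CPM, Psmb1 485 ± 271 and 334 ± 91.4 CPM, and Psma2 444 ± 265 and 472 ± 59.4 CPM in Sox17-deleted hypoxic and control libraries (SD, n = 4 each). Counts of Psmb8 per count of Psmb5, the subunit it replaces, were 9.13, 4.26, 1.49 and 2.14 in Sox17-deleted hypoxic libraries and 3.23, 4.08, 4.24 and 3.79 in control libraries (exact permutation p = 0.857). Alveolar type 2 markers were higher in the same libraries (2078 to 4040 CPM, against 954 to 1310 CPM in control libraries), and their part in these levels was not tested.

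Of 18 genes for regulators of class I transcription, all tested, 8 were above 0 and 10 below, with a median of −0.26, and none passed the test. Irf1, an interferon-γ-induced factor that binds class I promoters, averaged 926 ± 342 CPM in Sox17-deleted hypoxic libraries and 644 ± 50.3 CPM in control libraries, and Irf2 averaged 432 ± 220 and 384 ± 50.2 CPM (SD, n = 4 each). Jak1, a kinase of the interferon receptors, had 498, 526, 269 and 410 CPM in Sox17-deleted hypoxic libraries, against 745, 574, 683 and 636 CPM in control libraries, with no overlap (log2 fold change −0.63, edgeR adjusted p = 1.00). Groups did not overlap for 3 of the 18, where 6.59% of all tested genes did not, the other two, named after their values were seen, being Jak2 and Rfx5. Jak2 had 3.02, 0, 0 and 0 CPM in Sox17-deleted hypoxic libraries, against 39.9, 19.1, 46.6 and 44.8 CPM in control libraries (edgeR adjusted p = 0.975). Rfx5, a subunit of the complex that binds the X box, had 39.3, 84.3, 134 and 61.6 CPM in Sox17-deleted hypoxic libraries, against 0.284, 16.6, 0.515 and 34.2 CPM in control libraries (edgeR adjusted p = 1.00).

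Interferon response genes had 18 of 22 tested, 12 above 0 and 6 below, with a median of 0.19, and none passed the test. Ly6e averaged 3307 ± 1507 CPM in Sox17-deleted hypoxic libraries and 3895 ± 402 CPM in control libraries, Ifitm3 2740 ± 765 and 2359 ± 455 CPM, and Bst2 222 ± 74.3 and 202 ± 82.8 CPM (SD, n = 4 each). MHC class II genes, given here for contrast, had 6 of 7 tested above 0, with a median of 0.98, and none passed the test. Of the 7, 3 had an unadjusted p under 0.05 (5.12% of all genes), and the groups did not overlap for 2, Cd74 and H2-Ab1, both higher in the Sox17-deleted hypoxic group (1.63% of all genes). Cd74, the invariant chain gene, averaged 1371 ± 539 CPM in Sox17-deleted hypoxic libraries and 550 ± 205 CPM in control libraries, H2-Aa 1231 ± 325 and 709 ± 178 CPM, and H2-Eb1 826 ± 404 and 454 ± 167 CPM. Whether class I and class II differed in their change was not tested.

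**Figure D4:**
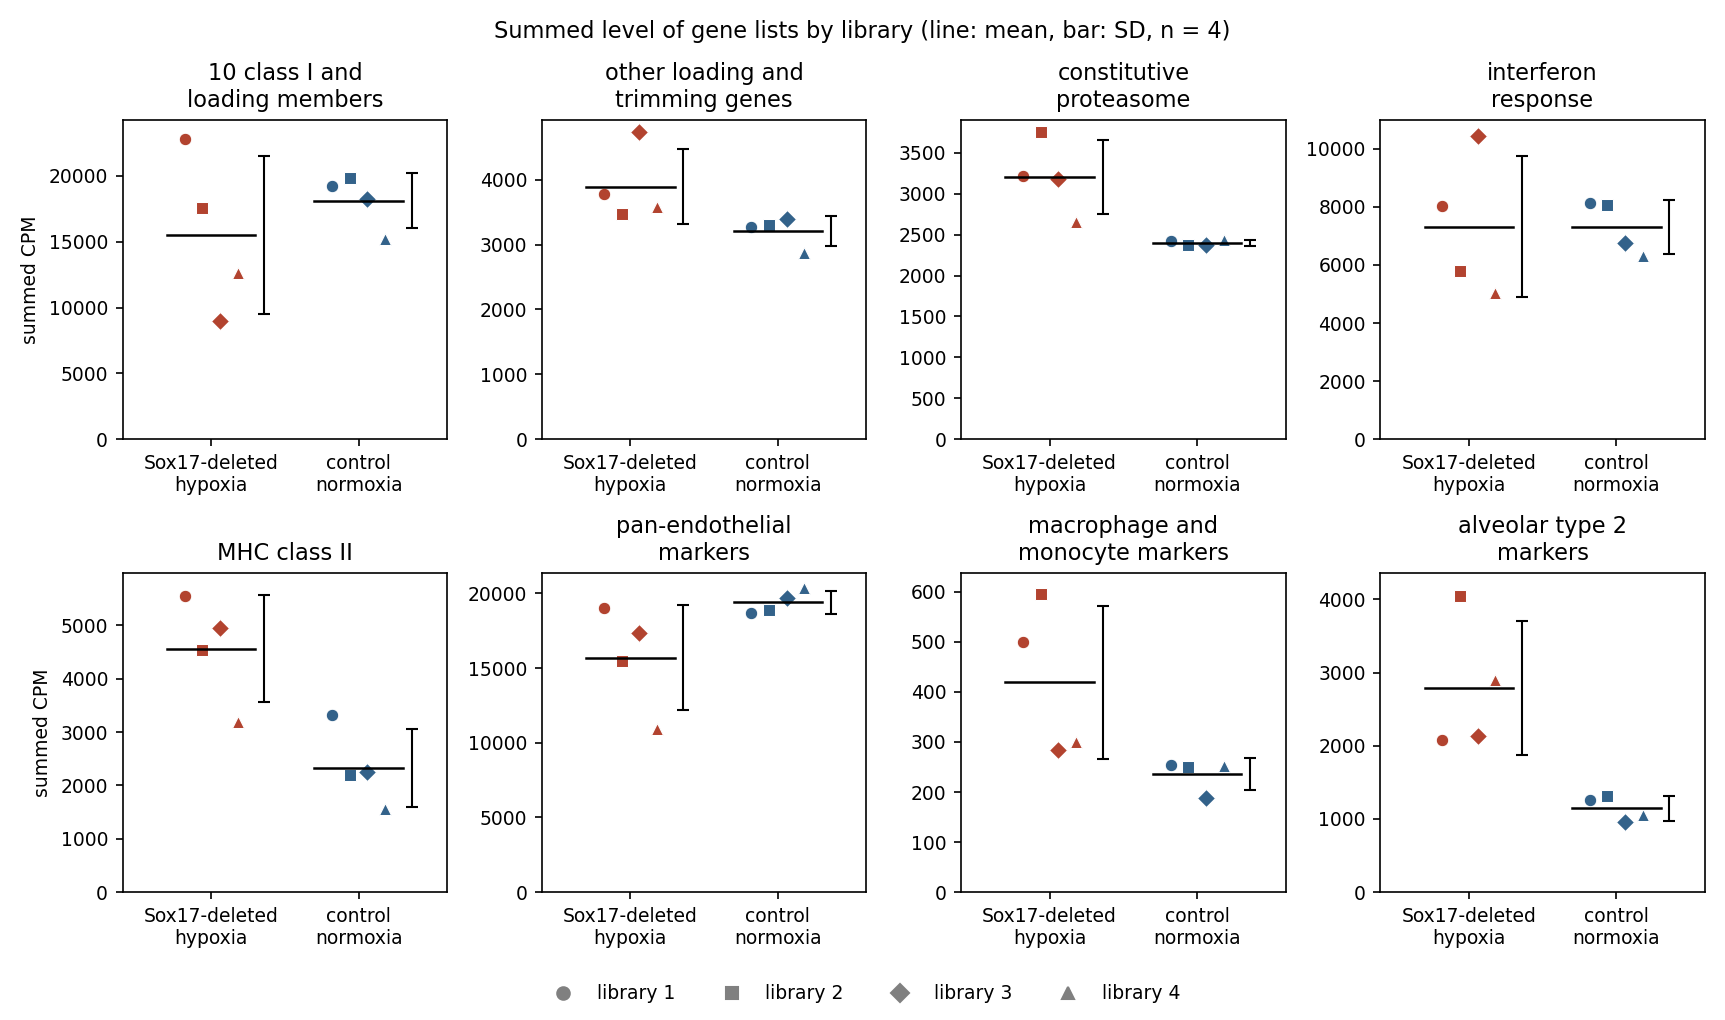
Summed level of 8 gene lists in CPM (y axis, linear from 0) in Sox17-deleted hypoxic and control libraries, with symbols for the library number, lines for the mean and bars for the SD over 4 libraries. The sum of the 10 class I and loading genes overlaps between the groups. The sums of other loading and trimming genes, constitutive proteasome, macrophage and monocyte markers and alveolar type 2 markers do not. The first of these lists includes proteasome genes such as Psmb10, and the second is mostly core subunits that immunoproteasomes share. Taken singly, every tested loading and trimming, constitutive proteasome, and macrophage and monocyte gene of these lists overlaps. Of the 11 alveolar type 2 markers tested, 2 do not overlap.

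Leukocytes also carry class I, and an immunoprecipitate from whole lung can hold RNA of other cells. Ptprc, the gene of the leukocyte antigen CD45, had 0, 0, 0 and 1 count in Sox17-deleted hypoxic libraries and 224, 8, 53 and 35 counts in control libraries. The 10 general leukocyte markers summed to 254 to 1408 CPM in Sox17-deleted hypoxic libraries, against 166 to 346 CPM in control libraries. The upper end, in Sox17-deleted hypoxic library 4, was mostly Lcp1 (1310 CPM). In Sox17-deleted hypoxic library 3 Rac2 (144 CPM) was above Lcp1 (108 CPM), and Cd48 was at 0 in all 8 libraries. Macrophage and monocyte markers (14 genes, with Adgre1 at 0 throughout) summed to 283 to 595 CPM, against 189 to 255 CPM in control libraries. Only 6 of these 14 genes were tested, and taken singly the groups overlapped for all 6. Neutrophil markers (6 genes) summed to 51.3 to 413 CPM, against 51.5 to 124 CPM. T and NK cell markers (9 with a row, Cd8a and Klrb1c at 0) summed to at most 72.0 CPM, against at most 28.7 CPM. In Sox17-deleted hypoxic libraries all of it was Gzma (44.1 CPM in library 2 and 72.0 CPM in library 4). Cd3d, Cd3e, Cd3g, Cd4, Nkg7 and Lck had counts in control libraries only, at most 13.9 CPM each. B cell markers (5 genes, with Ms4a1 at 0) were at most 22.9 CPM in sum in Sox17-deleted hypoxic libraries, against 7.15 to 53.6 CPM in control libraries. Fibroblast markers (12 genes) summed to 1390 to 10389 CPM in Sox17-deleted hypoxic libraries, against 1460 to 1648 CPM in control libraries. The upper end was library 4, where Gsn alone had 8208 CPM. Of the 10 fibroblast markers tested, 7 had a log2 fold change above 0 and 3 below. In Sox17-deleted hypoxic library 1, where B2m and H2-D1 were highest, general leukocyte markers summed to 391 CPM and pan-endothelial markers to 19049 CPM. The same library had the highest neutrophil marker sum of all 8 (413 CPM, the next being 173 CPM). S100a8 (247 CPM) and S100a9 (165 CPM) gave nearly all of it. In that library Csf3r, Cxcr2 and Mmp9 had 0 counts and Retnlg had 0.387 CPM. Macrophage and monocyte markers summed to 499 CPM there, above every control. The part of these cell types in the class I and class II levels was not tested.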

How the data were processed

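Libraries were prepared from immunoprecipitated haemagglutinin-tagged ribosomes of lung with a QuantSeq 3′ kit, per the labels' protocols. The authors deposited raw integer counts for each gene symbol. Bowtie2, bedtools and mm10 are named in the submitters' processing notes, and their settings are not given in the sources used here. Rows of a repeated symbol (44) were summed, and none was one of the 10 genes. CPM are counts-per-million of the library total, and 3 counts correspond to 0.232 to 0.429 CPM. Every pair of libraries differed by more than sampling noise (smallest chi-square per degree of freedom 168). Samples were grouped by their titles.

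All genes passing filterByExpr were fitted in R 4.3.3 with edgeR 4.0.16 (TMM factors, group only, quasi-likelihood F test, Benjamini-Hochberg adjustment, threshold 0.05). The standard error is the fold change divided by the square root of F, and intervals use the fit's total degrees of freedom. Alternatives used DESeq2 1.42.0, limma 3.58.1 (voom), other scalings and filters, a replicate block, and each library left out. Positions are from GENCODE M21 (GRCm38, the assembly of mm10), promoters from RefSeq GRCm38.p6, aligned with Biopython 1.88. The steps were tested on simulated data. Besides the 10 genes, the text names the 3 most abundant genes of each pathway list and says where it goes further. Members and lists were chosen with earlier results of these data known. The 3-count floor covers counting error only. A single B cell marker is not reported here.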

Additional observations from a re-analysis of the deposited data

Results flagged for a closer look

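Nlrc5 stood out in both groups, because a single library lay far from the other 3. In the Sox17-deleted hypoxic group library 4 had 26.3 CPM and the other 3 had 0 CPM. In the control group library 3 had 23.5 CPM and the next highest had 0.181 CPM. These were 2 of 20 sets of 4 libraries examined (10 genes in 2 groups). Gaps were judged by Dixon's ratio, which by chance marks about 1 in 20 sets of normally distributed values. Nlrc5 was at or near 0 counts in the other libraries, so that share does not apply to it.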

How the results depend on the processing

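Over 20 alternatives, none of 176 refitted member values passed an adjusted p of 0.05; 161 kept their direction and 15, of 5 genes, did not. The log2 fold change of H2-K1 was −0.022 with upper-quartile factors and −0.015 with the replicate block, that of H2-T23 −0.14 and of Tap2 −0.48 with limma-voom, and that of Psmb9 0.41 with endothelial marker counts as library size, where the median of all genes shifted by 0.36. Over the fits that each lacked 1 library, the range was −0.091 to 0.24 for H2-K1, −0.48 to 0.90 for H2-T23, −0.18 to 0.70 for Tap2, −0.028 to 0.38 for Tapbp, −0.64 to 0.24 for Psmb9, −0.59 to −0.20 for B2m, −1.06 to −0.23 for H2-D1, 0.56 to 1.07 for Tap1 and 0.20 to 0.57 for Psmb8. Genes called over the whole table, 0 by edgeR, numbered 469 with DESeq2, 44 with limma-voom, 17 without a low-count filter, 2 with endothelial marker scaling and 1 with robust estimation. With a library left out they numbered 0 to 5, the 5 without Sox17-deleted hypoxic library 1. Genes with non-overlapping groups numbered 546, 539 on TMM-scaled CPM, and 246 of the 3705 genes averaging 50 CPM or more. With heavy chain rows summed, H2-K1, H2-D1 and H2-T23 have no value of their own. The cause of these changes was not tested. Replicate numbers did not pair libraries: deviations of same-numbered libraries correlated across genes at 0.01, 0.02, −0.02 and 0.02, and with the replicate block edgeR called 0 genes. The difference in the log2 ratio of H2-K1 to H2-D1, an alternative chosen after seeing the data, ran from 0.54 to 1.12 with a library left out.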

Other observations

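Class I-like genes, which share the class I fold but serve other purposes, were sparsely counted: 3 of 6 passed the expression filter, 1 with a log2 fold change above 0 and 2 below, and none passed the test. Fcgrt, the heavy chain gene of the neonatal Fc receptor that spares IgG from degradation in endothelium, averaged 51.5 ± 35.2 CPM in Sox17-deleted hypoxic libraries and 38.5 ± 22.9 CPM in control libraries (SD, n = 4 each). Hfe, which regulates iron uptake, averaged 10.8 ± 12.5 and 48.1 ± 24.9 CPM (log2 fold change −2.21, SE 1.78), and Cd1d1, which presents lipids, 2.06 ± 3.92 and 20.6 ± 25.8 CPM (log2 fold change −3.40, SE 2.50). In Sox17-deleted hypoxic library 3 the 6 genes together reached 1.43 CPM, while the other 7 libraries ranged from 69.8 to 149 CPM.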
